A study of Mus musculus with 22 samples.

Results

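Histone genes and testis histone variants were taken from the testes RNA-Seq table as every row whose symbol names a core or linker histone, together with the spermatid linker *Hils1* and the centromeric H3 variant *Cenpa*. The rule selected 62 of 17931 gene symbols by name alone. By symbol, 42 rows were replication-dependent histones, 11 were replacement variants, 8 were testis-specific variants and 1 was the oocyte linker *H1foo*. The libraries came from whole testes of 3 wild-type (WT) and 3 MLX KO males, paired littermates 7 months of age. In the MLX KO animals, *Mlx*, which encodes a dimerization partner of MondoA and of proteins of the MAX network, was constitutively deleted in the whole body through its exons 3 to 6, after excision with Meox2-Cre. WT males carried no deletion. The tissue was not sorted, so that fewer cells of a type and less RNA per cell cannot be told apart in any value below.

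Histones package DNA into nucleosomes, with H2A, H2B, H3 and H4 forming the core and H1 binding the linker. Replication-dependent histone genes lie in clusters, are transcribed in S phase, and produce mRNAs that end in a conserved stem-loop in place of a poly(A) tail. Replacement variants are made throughout the cell cycle from polyadenylated mRNAs. During spermiogenesis, some testis-specific variants enter the chromatin of the haploid germ cell before transition proteins and then protamines displace most histones.

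The stem-loop is the sequence that separates these kinds of mRNA, and its forms in the members are shown for that reason. It was searched in mm10 within 150 bases after a stop codon, as a 16-base element with a perfectly paired 6-base stem. It was found in 45 of 62 members (72.6%) and in 69 of 21752 protein-coding genes (0.317%). In the sequences below, written 5′ to 3′ as DNA, capitals mark the stem and lower case the loop.
*Hist1h2bc*, chr13: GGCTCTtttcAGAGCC
*Hist1h1t*, chr13: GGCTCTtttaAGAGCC
*Hist1h4a*, chr13: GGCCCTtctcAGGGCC
*H2afx*, chr9: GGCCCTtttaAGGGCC
The *Hist1h2bc* form was also that of *Hist1h1c*, *Hist1h2bp*, *Hist1h3a*, *Hist1h2aa* and *H2bfm*. No such element was found for *H1fnt*, *Hils1*, *H2afb1* or *H2afb3*, nor for any replacement row except *H2afx*, the variant phosphorylated at DNA breaks. Of the members with a stem-loop, 21 had an annotated transcript that ended before it or at most 50 bases past it, and 24 had one that ran further.

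Across the series, the libraries held 16674678 to 19742726 counts. *Mlx* itself had 128, 96 and 98 counts in WT against 94, 109 and 102 counts in MLX KO libraries. These gene totals do not separate the deleted exons from the rest and so do not check the genotype labels. Counts of the MLX KO libraries differed from each other more when replicate 1 was one of the pair, with a chi-square per degree of freedom of 8.29 in both cases, than between replicates 2 and 3, with 2.74.

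Histone counts fell on few rows. Whether RNA was selected for poly(A) tails is not given in the sources used here, so that shares of counts need not be shares of histone mRNA. Levels are given as CPM, counts scaled to a common library size after TMM normalization. Histone rows received 0.267% ± 0.0011 (SD, n = 3) of all counts in WT against 0.244% ± 0.0063 (SD, n = 3) in MLX KO testes. *H1fnt*, *H3f3b*, *Hils1*, *H3f3a* and *H2afz* together held 85.3% ± 0.28 (SD, n = 3) of these counts in WT against 84.6% ± 0.62 (SD, n = 3) in MLX KO testes. In contrast, 23 rows had 3 or fewer counts in every library, 22 of them replication-dependent and the other *H1foo*. After the filter on low counts, 27 members were tested, comprising 9 replication-dependent, 11 replacement and 7 testis-specific rows, and the remaining 35 were not.

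**Figure D1:**
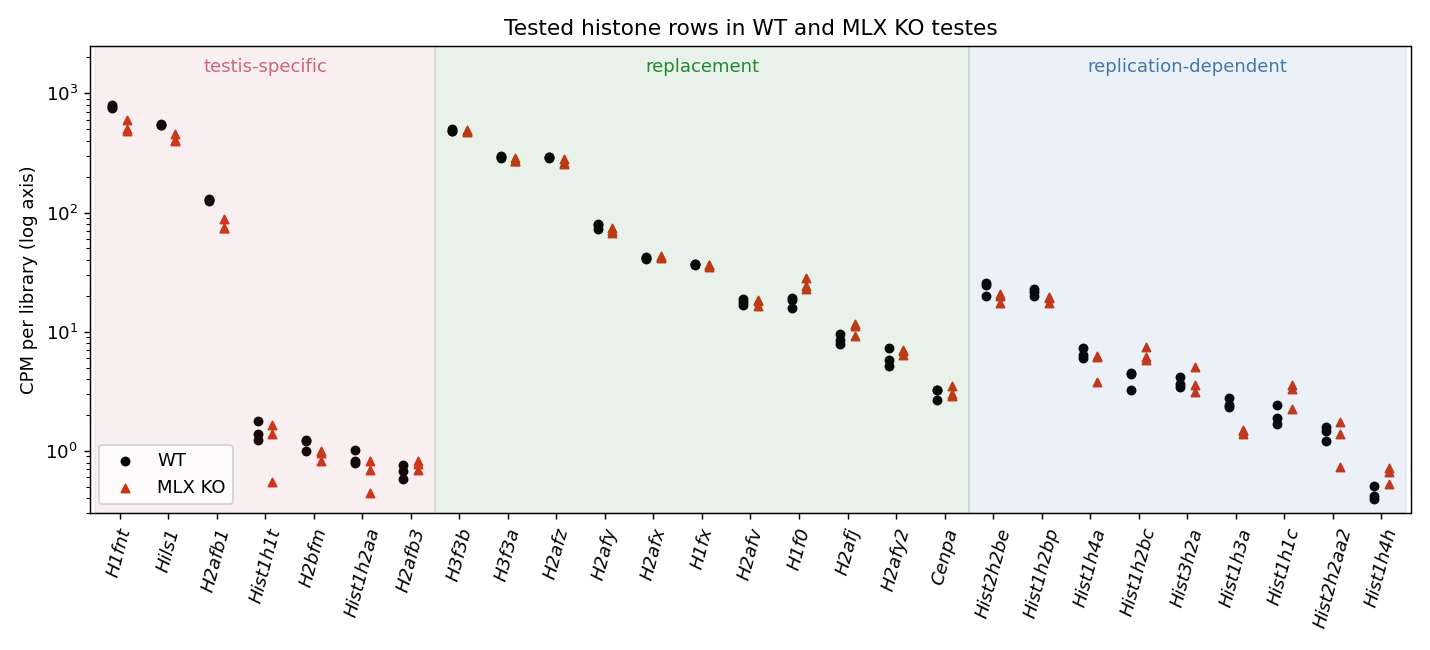
CPM (log axis) of the 27 tested histone rows in each library, ordered by class and WT level, with black circles for the 3 WT and red triangles for the 3 MLX KO libraries. The testis-specific rows split into 3 above 70 CPM and 4 below 2 CPM, and the MLX KO triangles of *H1fnt*, *Hils1* and *H2afb1* all lie below the WT circles.

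The 3 abundant testis-specific variants were lower in MLX KO testes, 1 of 11 replacement variants was higher, and 3 replication-dependent rows were called, in both directions. Of the 27 tested members, 3 were higher and 4 lower in MLX KO testes (edgeR quasi-likelihood test, Benjamini-Hochberg adjusted p under 0.05), each in one direction within each of the 3 pairs. Across all 14640 genes tested, 45.4% were past the threshold, 24.8% being higher and 20.6% lower. The median LFC (log2 fold change, MLX KO against WT) was -0.09 over the tested members and 0.03 over all genes. Without MLX KO replicate 1 the members called were 4 higher and 7 lower. Scaled to library size alone, the calls over all genes were 5343 higher and 1268 lower in place of 3634 and 3015, those among members were 6 higher and 4 lower, and the median LFC of all genes was 0.16 in place of 0.03. CPM of the groups did not overlap in 11 tested members, compared with 56.2% of all genes.

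**Figure D2:**
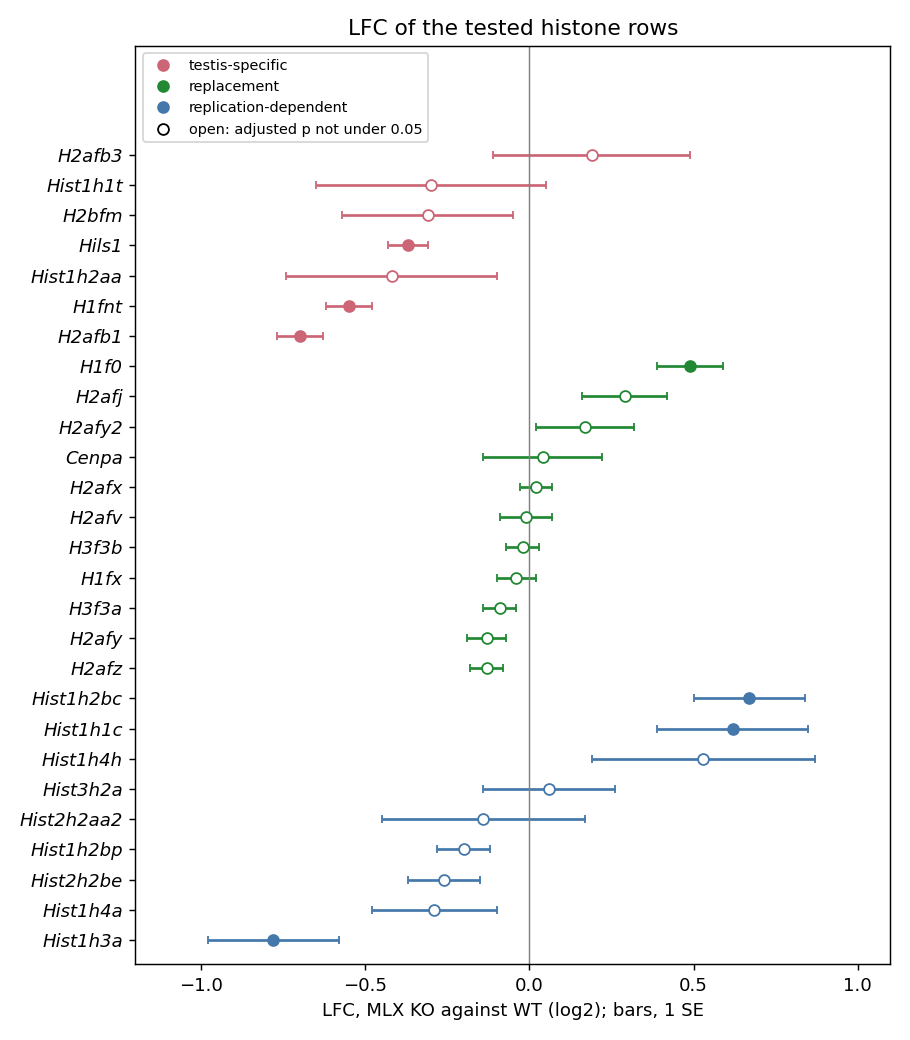
LFC (log2) of the 27 tested members, MLX KO against WT, with bars of 1 SE, grouped by class. Filled points mark the 7 rows with an adjusted p under 0.05, which range from -0.78 for *Hist1h3a* to 0.67 for *Hist1h2bc*.

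Of the 7 tested testis-specific rows, 3 were lower and 0 higher with edgeR, with 0 higher also at an unadjusted p under 0.05 and with DESeq2. Their median LFC was -0.37, against 0.03 over all genes, of which 20.6% were lower and 24.8% higher with edgeR. *H1fnt* (1 exon, chr15:98255986-98257293, mm10) encodes H1T2, a linker histone placed at one pole of the spermatid nucleus. Its CPM was 760, 762 and 793 in WT against 597, 504 and 485 in MLX KO libraries. The groups were well separated, and replicate 1 was the highest of the MLX KO libraries. Its LFC was -0.55 (SE 0.07, adjusted p = 0.000174, edgeR).

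*Hils1* (1 exon, chr11:94967593-94968456) encodes a linker histone-like protein of spermatids. Its CPM was 549, 541 and 539 in WT against 458, 395 and 404 in MLX KO libraries, again without overlap. The LFC was -0.37 (SE 0.06, adjusted p = 0.00052, edgeR), the smallest decrease of the 3 abundant testis-specific rows.

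The *H2afb1* row needed its identity settled first. RefSeq lists this older symbol for both *H2ab1* on chromosome X and *H2al2a* on chromosome 2, the gene of H2A.L.2, a short H2A variant of condensing spermatids. The table also holds a row *Gm14920*, an older name of *H2ab1*, noticed only after its values had been seen, with 8, 1 and 8 counts in WT against 2, 1 and 2 counts in MLX KO libraries. By elimination, the *H2afb1* row was treated as *H2al2a* (1 exon, chr2:17996417-17996958). Its CPM was 126, 131 and 129 in WT against 88.4, 74.6 and 74.2 in MLX KO libraries. The gap between the groups was wider than either group's own range, and the LFC was -0.70 (SE 0.07, adjusted p = 2.42e-05, edgeR).

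The other testis-specific rows had few counts. Of these, *Hist1h1t*, *Hist1h2aa*, *Hist1h2ba* and *H2bfm* have a stem-loop, which *H1fnt*, *Hils1* and *H2afb1* lack. Whether RNA was selected for poly(A) tails is not given in the sources used here. Few counts therefore need not mean little mRNA, and the part of such selection was not tested. *Hist1h1t*, the linker histone of spermatocytes, had CPM of 1.79, 1.40 and 1.24 in WT against 1.65, 0.553 and 1.38 in MLX KO libraries. The groups overlapped, and the LFC of -0.30 (SE 0.35) did not pass the test (adjusted p = 0.508, edgeR). *Hist1h2aa*, a testis H2A, was at 0.878 CPM ± 0.12 (SD, n = 3) in WT against 0.652 CPM ± 0.194 (SD, n = 3) in MLX KO testes, with overlapping libraries. Its neighbour *Hist1h2ba*, the gene of the testis H2B TH2B, had 6, 6 and 10 counts in WT against 3, 9 and 4 counts in MLX KO libraries and was not tested. *H2bfm* and *H2afb3*, both X-linked, had LFC of -0.31 (SE 0.26) and 0.19 (SE 0.30), and neither passed. *H2afb3* shared 46.8% of its 50-base stretches with other transcripts, so that reads could have been divided between copies.

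For the 3 testis-specific rows called lower, the 250 bases before the annotated starts are shown (RefSeq, mm10, each on the strand of its gene). Shared regulation of these rows was not tested. The promoters of the members were searched on both strands, from 250 bases before to 50 bases after the start, for 4 short motifs. The cyclic AMP response element was searched as TGACGTCA. The E-box, of the kind that MAX-network dimers bind, was searched as CACGTG. The other motifs were the CCAAT box, by the letters of its name, and the TATA box as TATAAA. Capitals mark a match.
*H1fnt*, chr15:98257308-98257557, minus strand: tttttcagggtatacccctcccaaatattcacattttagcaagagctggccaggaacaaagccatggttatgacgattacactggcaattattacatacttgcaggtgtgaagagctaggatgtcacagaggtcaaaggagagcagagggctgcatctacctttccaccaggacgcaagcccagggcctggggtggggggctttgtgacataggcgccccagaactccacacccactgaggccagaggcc
*Hils1*, chr11:94967343-94967592, plus strand: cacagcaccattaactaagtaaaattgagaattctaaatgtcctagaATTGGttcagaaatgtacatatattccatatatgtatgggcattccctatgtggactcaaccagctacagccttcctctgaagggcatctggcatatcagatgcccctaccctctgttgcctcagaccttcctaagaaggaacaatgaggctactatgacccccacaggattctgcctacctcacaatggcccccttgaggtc
*H2afb1*, read as *H2al2a*, chr2:17996959-17997208, minus strand: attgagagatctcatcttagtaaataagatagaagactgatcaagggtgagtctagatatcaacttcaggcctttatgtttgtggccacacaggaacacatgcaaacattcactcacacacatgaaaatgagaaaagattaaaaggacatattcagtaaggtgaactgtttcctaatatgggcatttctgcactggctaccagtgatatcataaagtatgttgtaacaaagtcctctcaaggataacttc
In these windows, *Hils1* held a CCAAT box and the other two held none of the 4 motifs. An E-box was found in 0 of 8 testis-specific, 0 of 37 replication-dependent and 1 of 10 replacement promoters, and in 7.15% of all 32851 promoters. CCAAT boxes were present in 33 of 37 replication-dependent, 7 of 10 replacement and 6 of 8 testis-specific promoters, against 37.4% of all promoters. The TATA box was found in 20 of 37 replication-dependent promoters and 2 of 8 testis-specific promoters, against 13.6% of all. The cyclic AMP response element was found in 4 of 37 replication-dependent and 0 of 8 testis-specific promoters, against 1.79% of all. A match describes letters only, and promoter sequences were found for 56 of 62 members. Windows of neighbouring genes can overlap, so that a site can be counted for both rows. The windows of *Hist1h2aa* and *Hist1h2ba*, the testis-specific rows with a TATA box, overlap. So do those of *Hist1h2ag* and *Hist1h2bj*, which both hold the cyclic AMP response element.

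All 11 replacement rows were tested. With edgeR, 1 was higher and 0 were lower at the threshold, against 24.8% and 20.6% of all genes. At an unadjusted p under 0.05 there were 2 higher and 1 lower, and with DESeq2 there were 1 higher and 1 lower. The class median LFC was -0.01, against 0.03 over all genes, and 0.13 against 0.16 when scaled to library size alone. Its summed CPM was 1283 ± 18.5 (SD, n = 3) in WT against 1235 ± 17.5 (SD, n = 3) in MLX KO testes, a ratio of 0.963 that became 1.06 under library size alone.

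*H1f0* (1 exon, chr15:79028450-79030504), the linker histone H1.0 of differentiated and quiescent cells, was the replacement row that rose. Its CPM was 19.2, 18.4 and 15.7 in WT against 24.0, 28.4 and 22.7 in MLX KO libraries. The groups did not overlap, and the LFC was 0.49 (SE 0.10, adjusted p = 0.00298, edgeR). *H1f0*, *H1fx*, *H2afj*, *H2afx*, *H2afy*, *H2afy2* and *H3f3a*, 7 of 11 replacement rows, overlap annotated genes on the opposite strand, as do 13 of 42 replication-dependent and 1 of 8 testis-specific rows. *H1fx* and 5 replication-dependent rows overlap a gene on the same strand. Whether counting used strand is not given in the sources used here, so that reads of such rows and their partners may not be told apart. *H1fx*, the other replacement linker, was at 36.8 CPM ± 0.5 (SD, n = 3) in WT against 35.9 CPM ± 1.06 (SD, n = 3) in MLX KO testes.

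*H3f3a* and *H3f3b* encode the same H3.3 protein. *H3f3b* had CPM of 483, 506 and 481 in WT against 481, 489 and 478 in MLX KO libraries, and its LFC of -0.02 (SE 0.05) did not pass. *H3f3a* was at 293 CPM ± 4.13 (SD, n = 3) in WT against 275 CPM ± 8.45 (SD, n = 3) in MLX KO testes. Its groups did not overlap, but its LFC of -0.09 (SE 0.05) did not pass (adjusted p = 0.127, edgeR). *Cenpa*, which marks centromeres, was at 3.07 CPM ± 0.328 (SD, n = 3) in WT against 3.15 CPM ± 0.342 (SD, n = 3) in MLX KO testes.

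Of the H2A replacement variants, *H2afz* (H2A.Z) had CPM of 294, 287 and 291 in WT against 281, 255 and 260 in MLX KO libraries. No MLX KO library reached the lowest WT library, yet its LFC of -0.13 (SE 0.05) missed the threshold (adjusted p = 0.0538, edgeR). With DESeq2 the same row passed (LFC -0.16, adjusted p = 0.0221). *H2afj* had an LFC of 0.29 (SE 0.13, adjusted p = 0.0787, edgeR), and *H2afy*, the gene of macroH2A1, one of -0.13 (SE 0.06, adjusted p = 0.103, edgeR). *H2afx*, *H2afv* and *H2afy2* (macroH2A2) had LFC of 0.02 (SE 0.05), -0.01 (SE 0.08) and 0.17 (SE 0.15), with overlapping groups.

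Of the 42 replication-dependent rows, 33 lie on chromosome 13 and 33 had too few counts to be tested. Among the 9 tested rows, 2 were higher and 1 was lower at the threshold, against 24.8% and 20.6% of all genes. The median LFC of these 9 rows was -0.14. Summed over all 42 rows, CPM was 63.9, 72.6 and 71.1 in WT against 61.8, 64.0 and 64.3 in MLX KO libraries, so that the groups overlapped. The ratio of the group means was 0.916, and 1.01 under library size alone. Of these rows, 16 shared more than 50% of their 50-base stretches with other transcripts, and counts of such rows depend on how reads with several matches were treated, which is not given in the sources used here.

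*Hist1h2bc* (chr13:23684199-23692908), an H2B row whose annotated transcript splices to an exon far past the stem-loop, showed the largest increase. Its CPM was 3.27, 4.52 and 4.46 in WT against 5.83, 7.47 and 6.14 in MLX KO libraries. The groups did not overlap, and the LFC was 0.67 (SE 0.17, adjusted p = 0.00709, edgeR). With the littermate pair as a term in DESeq2 the call was lost (LFC 0.64, adjusted p = 0.0523). It was kept when edgeR was blocked on the pair (adjusted p = 0.00234).

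*Hist1h1c*, the gene of linker histone H1.2, had CPM of 1.90, 2.42 and 1.69 in WT against 2.27, 3.32 and 3.60 in MLX KO libraries. The lowest MLX KO library lay within the WT range, and the LFC of 0.62 (SE 0.23) passed narrowly (adjusted p = 0.0491, edgeR). The call was lost with DESeq2 (adjusted p = 0.146), with its size factors in edgeR (adjusted p = 0.0546), with the pair as a term in DESeq2 (LFC 0.57, adjusted p = 0.287), and without WT replicate 1 (0.12), WT replicate 3 (0.145), MLX KO replicate 2 (0.132) or MLX KO replicate 3 (0.173).

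*Hist1h3a* (chr13:23761853-23762386), an H3.1 row, showed the largest decrease. Its CPM was 2.32, 2.42 and 2.76 in WT against 1.496, 1.383 and 1.482 in MLX KO libraries, without overlap. The LFC was -0.78 (SE 0.20, adjusted p = 0.00871, edgeR), and the call was lost with the pair as a term in DESeq2 (LFC -0.81, adjusted p = 0.143) but kept when edgeR was blocked on the pair (adjusted p = 0.0122). Of its 50-base stretches, 49.5% occurred in other transcripts.

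The most abundant replication-dependent rows were both H2B genes. *Hist2h2be*, which lacked a stem-loop in the window and carries a poly(A) signal at its annotated end, had CPM of 19.8, 25.6 and 24.5 in WT against 17.44, 20.03 and 20.86 in MLX KO libraries. The groups overlapped through WT replicate 1, and the LFC was -0.26 (SE 0.11, adjusted p = 0.0688, edgeR). With the littermate pair as a block it passed at the same LFC (adjusted p = 0.0182, edgeR), which raised the replication-dependent rows called lower from 1 to 2, and without WT replicate 1 it passed as well (adjusted p = 0.0144, edgeR). *Hist1h2bp* had CPM of 20.1, 22.8 and 21.7 in WT against 19.7, 17.4 and 19.2 in MLX KO libraries, and its LFC of -0.20 (SE 0.08) did not pass (adjusted p = 0.0738, edgeR).

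*Hist1h4a* was the leading H4 row, at 6.60 CPM ± 0.7 (SD, n = 3) in WT against 5.39 CPM ± 1.41 (SD, n = 3) in MLX KO testes. MLX KO replicate 1, at 3.77 CPM, lay below the other libraries. *Hist3h2a*, *Hist2h2aa2* and *Hist1h4h* had LFC of 0.06 (SE 0.20), -0.14 (SE 0.31) and 0.53 (SE 0.34), and none passed. *Hist2h2ac*, an H2A row that was not tested, had 35, 6 and 7 counts in WT against 24, 5 and 5 counts in MLX KO libraries, so that both members of littermate pair 1 stood above the other libraries whatever the genotype.

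Rows with a stem-loop had a lower median level than rows without one, wherever the annotated transcript ended, though single rows overlapped. Per kilobase of exon, the 17 rows without a stem-loop had a median level of 10.8 CPM per kb over the 6 libraries, the 21 rows that ended at the stem-loop 0.1315 CPM per kb, and the 24 rows that ran past it 0.108 CPM per kb. The kinds of row also differed in histone class, since 2 of 17, 19 of 21 and 21 of 24 were replication-dependent. The 2 replication-dependent rows without a stem-loop had mean CPM of 21.4 and 0.0462, and stem-loop and class cannot be told apart here. The kinds of row differed in exon length too, with medians of 1776, 473 and 1104 bases. They differed in sequence shared with other transcripts as well, since 1 of 17, 13 of 21 and 2 of 24 rows had more than 50% of their 50-base stretches in common with another transcript. Among the other 16, 8 and 22 rows, the medians were 10.9, 0.779 and 0.108 CPM per kb. In CPM not scaled to length, the medians over all rows were 21.4, 0.0578 and 0.159, so that the order of the 2 kinds with a stem-loop turned with the scale. Summed, the rows that ended at the stem-loop gave 7.14 CPM ± 1.05 (SD, n = 3) in WT against 5.55 CPM ± 1.01 (SD, n = 3) in MLX KO testes, and those that ran past it gave 84.3 CPM ± 1.78 (SD, n = 3) and 83.7 CPM ± 1.67 (SD, n = 3). Neither how reads with several matches were counted nor whether RNA was selected for poly(A) tails is given in the sources used here, and their part in these levels was not tested.

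**Figure D3:**
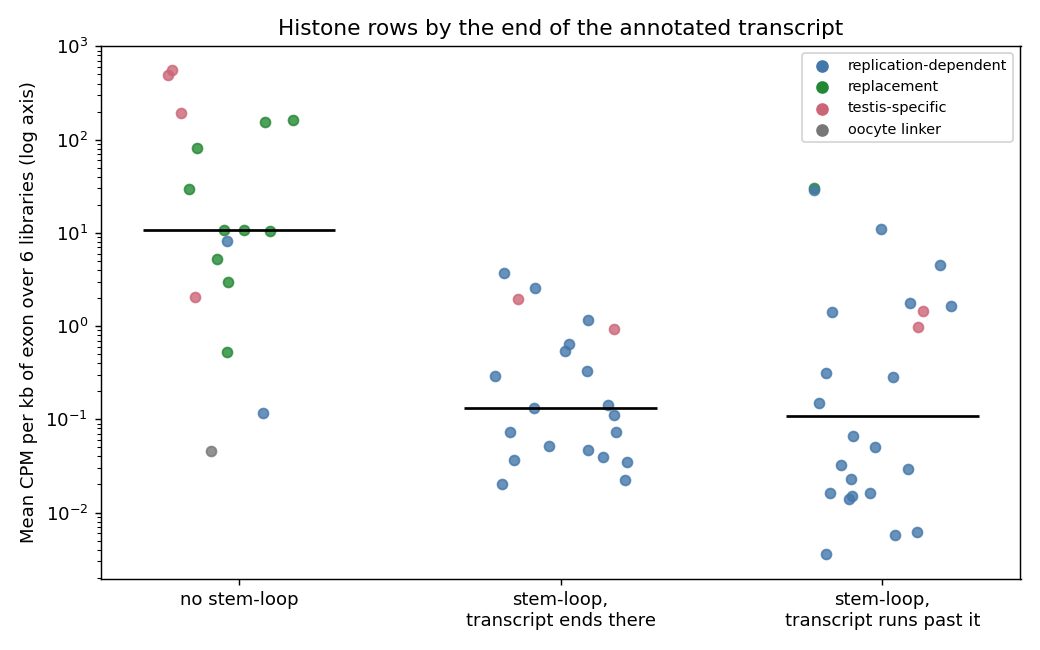
Mean CPM per kb of exon over the 6 libraries (log axis) of all 62 members, by whether the annotated transcript has no stem-loop, ends before it or at most 50 bases past it, or runs further, with colours for class and a black line at each median. The medians are 10.8, 0.1315 and 0.108 CPM per kb.

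Per kilobase of exon, *Hils1* and *H1fnt* were the highest members in WT testes. *Hils1* ranged from 624 to 635 CPM per kb and *H1fnt* from 581 to 606 CPM per kb, without overlap. *H2afb1* followed at 232 to 242 CPM per kb. *H3f3b*, at 162 to 170 CPM per kb, and *H2afz*, at 162 to 166 CPM per kb, overlapped and were not separated, and *H3f3a* lay below both at 82.4 to 84.6 CPM per kb. The next rows, *Hist1h2bp*, *H1fx* and *H2afx*, overlapped between 28.5 and 32.3 CPM per kb. In MLX KO testes, *Hils1* was at 458 to 530 CPM per kb and *H1fnt* at 371 to 456 CPM per kb. The length used merges the exons of all annotated transcripts. It can exceed a single transcript of *H2afz*, *H3f3a* and *H3f3b*, with 3, 6 and 4 exons, while *Hils1*, *H1fnt* and *H2afb1* have 1 exon each. *H2afz* and *H3f3a* also shared 35.4% and 27.1% of their 50-base stretches with other transcripts. The part of length and sharing in this order was not tested.

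Within each histone family, most counts fell on few rows. The part of any selection for poly(A) tails in these shares was not tested. *H1fnt* and *Hils1* together held 95.7% ± 0.19 (SD, n = 3) of H1 counts in WT against 93.5% ± 0.7 (SD, n = 3) in MLX KO testes, while *H1f0* held 1.29% ± 0.14 (SD, n = 3) and 2.49% ± 0.4 (SD, n = 3). Among H2A rows, *H2afz* held 50.2% ± 0.68 (SD, n = 3) in WT against 53.1% ± 0.59 (SD, n = 3) in MLX KO testes, and *H2afb1* 22.2% ± 0.54 (SD, n = 3) and 15.8% ± 0.96 (SD, n = 3). The H3.3 genes held 99.3% ± 0.069 (SD, n = 3) of H3 counts in WT against 99.4% ± 0.048 (SD, n = 3) in MLX KO testes. H2B and H4, the families without a replacement row here, summed to 51.4 CPM ± 5.28 (SD, n = 3) and 7.73 CPM ± 0.698 (SD, n = 3) in WT testes, while H3 summed to 789 CPM ± 16.5 (SD, n = 3).

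Testis-specific rows held 51.8%, 51.1% and 52.3% of histone counts in the WT libraries and 46.6%, 43.1% and 42.9% in the MLX KO libraries. Their summed CPM was 1447 ± 15.8 (SD, n = 3) in WT against 1031 ± 101 (SD, n = 3) in MLX KO testes, a ratio of 0.712, and of 0.783 under library size alone. No MLX KO library reached the WT range. The replacement share was correspondingly 45.8% ± 0.57 (SD, n = 3) in WT against 53.1% ± 1.9 (SD, n = 3) in MLX KO testes, and the replication-dependent share 2.47% ± 0.15 (SD, n = 3) and 2.73% ± 0.19 (SD, n = 3). Shares of a fixed total are linked, and a lower share of 1 class raises the others.

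**Figure D4:**
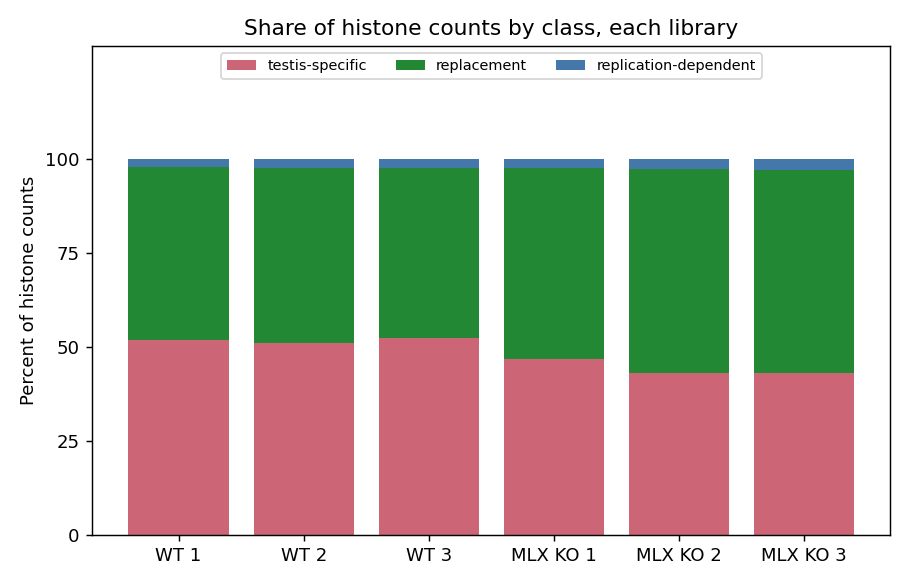
Percent of histone counts in each class, stacked for each of the 6 libraries. Testis-specific rows hold 51.1% to 52.3% in the WT and 42.9% to 46.6% in the MLX KO libraries, and replication-dependent rows hold between 2.3% and 2.85%.

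Cell type markers also differed between the genotypes, where 24.8% of all genes tested were higher and 20.6% lower in MLX KO testes. All 8 elongating spermatid markers, all 6 round spermatid markers and 4 of 7 spermatocyte markers were lower in MLX KO testes, and all 8 Sertoli cell markers, all 6 Leydig cell markers and all 5 macrophage markers with a row were higher. The calls of elongating spermatid, Sertoli cell, Leydig cell and macrophage markers held under all 14 alternatives. Scaled to library size alone, 2 of 6 round spermatid and 0 of 7 spermatocyte markers were lower. When edgeR was blocked on the littermate pair, the lower calls numbered 4 for round spermatids and 5 for spermatocytes. Leaving out each library in turn gave 4 to 6 round spermatid markers lower, and 1 to 5 spermatocyte markers, with 1 when WT replicate 1 or MLX KO replicate 2 was left out and 2 without MLX KO replicate 3. The summed CPM of elongating spermatid markers lay between 20797 and 21756 in the WT libraries and between 12218 and 14963 in the MLX KO libraries, a ratio of 0.634 beside 0.685 for *H1fnt*, 0.772 for *Hils1* and 0.616 for *H2afb1*. For Sertoli cell markers it lay between 916 and 961 in the WT libraries and between 1414 and 1724 in the MLX KO libraries. The ratio was 1.70, beside 1.41 for *H1f0* and 1.59 for *Hist1h2bc*. Leydig cell and macrophage markers had ratios of 2.58 and 1.79, and round spermatid and spermatocyte markers of 0.853 and 0.894. Spermatogonium markers (2 of 7 higher, ratio 1.23), endothelial markers (2 of 4 higher, ratio 2.01) and peritubular myoid markers (2 of 4 higher, 1 lower, ratio 0.886) moved less evenly. The summed CPM of peritubular myoid markers, 334 in WT against 296 in MLX KO testes, was mostly *Actg2*, the marker that was lower, at 267 against 204. The median LFC of that list was 0.33. Of the 2 spermatogonium calls, *Uchl1* (LFC 0.17, SE 0.06, adjusted p = 0.0435, edgeR) was lost under 10 of 14 alternatives, among them DESeq2, the pair as a block and the omission of any 1 library except MLX KO replicate 1. No marker with a row was at 0, and the part of these cell types in the histone values was not tested.

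Genes of histone removal were also lower. Of 18 genes of histone eviction and replacement in spermatids, 13 were lower and 0 higher with edgeR, against 20.6% and 24.8% of all genes. The median LFC of the list was -0.29, and 0 were higher at an unadjusted p under 0.05 or with DESeq2. At an LFC of -0.82 (SE 0.08, adjusted p = 2.35e-05, edgeR), *Tnp2*, the gene of transition protein 2, fell the most, and *Prm1*, the gene of protamine 1, followed at -0.80 (SE 0.07, adjusted p = 2.22e-05, edgeR). This list shares *Tnp1*, *Tnp2*, *Prm1* and *Prm2* with the elongating spermatid markers.

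Of 13 genes for histone mRNA transcription and 3′ end processing, 1 was higher and 4 were lower, against 24.8% and 20.6% of all genes. The median LFC of the list was -0.11. Leaving out any of the 3 WT libraries or MLX KO replicates 2 or 3 reduced the lower calls to 2, as did DESeq2. *Lsm11*, a subunit of the U7 particle that cleaves histone mRNA, rose by an LFC of 0.68 (SE 0.16, adjusted p = 0.0049, edgeR), from 4.15 CPM ± 0.825 (SD, n = 3) to 6.66 CPM ± 0.302 (SD, n = 3). *Cstf2* and *Sympk*, subunits of cleavage complexes, both fell by 0.24 on the log2 scale. *Slbp*, which binds the stem-loop, and *Npat*, which activates histone gene transcription in S phase, were the other genes called lower, named here after their values were seen. Their adjusted p was 0.041 and 0.0303 (edgeR). The *Slbp* call was lost under 11 and the *Npat* call under 8 of 14 alternatives, DESeq2 among them for both.

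Of 29 histone chaperones and variant depositors with a row, 4 were higher and 6 lower, against 24.8% and 20.6% of all genes. The median LFC of the list was -0.05. *Atrx*, which deposits H3.3 with DAXX, rose the most, at an LFC of 0.81 (SE 0.10, adjusted p = 0.000132, edgeR), and *Rbbp7*, a histone-binding subunit of several complexes, followed at 0.73 (SE 0.09, adjusted p = 9.34e-05, edgeR). *Ipo4*, which imports H3 and H4, and *Chaf1a*, the large subunit of the chromatin assembly factor CAF-1, fell by 0.30 and 0.28 on the log2 scale. Of 23 genes of S phase and DNA replication, 2 were higher and 3 lower, against 24.8% and 20.6% of all genes. This list had a median LFC of -0.05, and with DESeq2 0 of its genes were higher and 3 lower. *Pola1*, the catalytic subunit of DNA polymerase alpha, had an LFC of 0.59 (SE 0.15, adjusted p = 0.00916, edgeR) and *Mcm2*, of the replicative helicase, one of 0.26 (SE 0.09, adjusted p = 0.0422, edgeR). The *Mcm2* call was lost when any 1 of the 3 WT libraries, or MLX KO replicate 1 or 2, was left out. *Mcm7*, also of the helicase, and *Top2a*, a DNA topoisomerase, fell by 0.21 and 0.17 on the log2 scale. The *Top2a* call was lost when WT replicate 1 or 2, or MLX KO replicate 2 or 3, was left out.

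**Figure D5:**
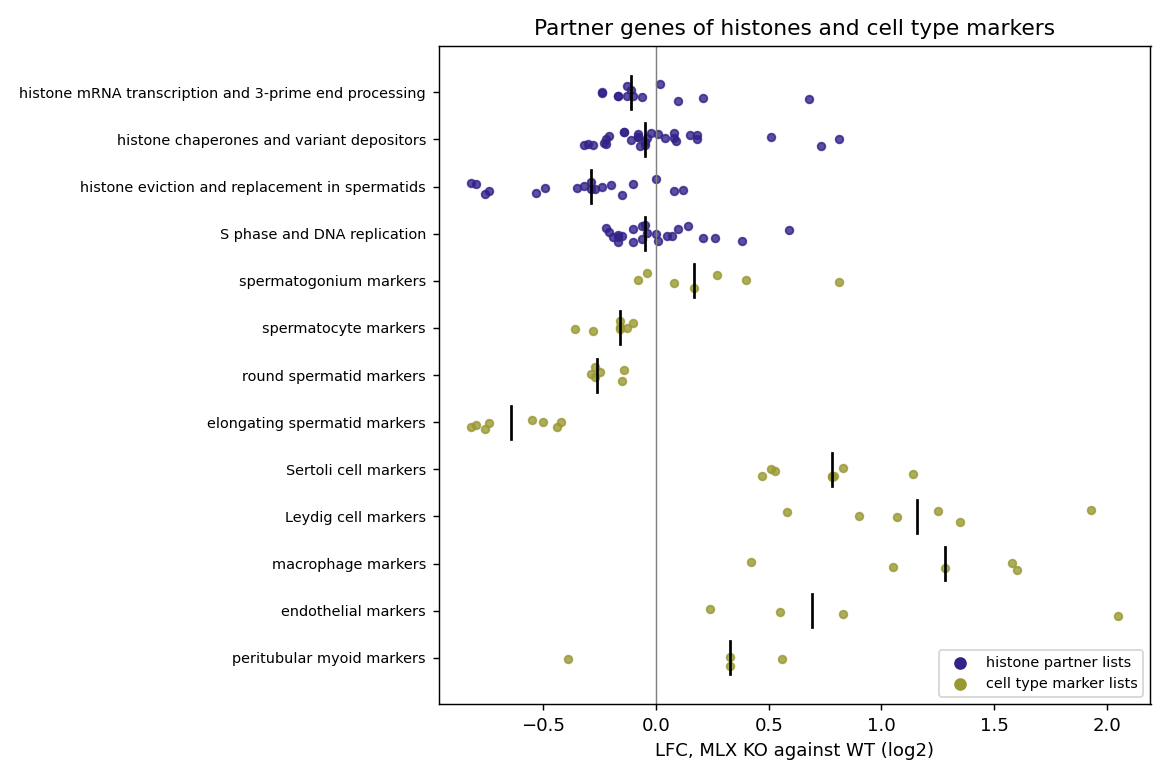
LFC (log2), MLX KO against WT, of each tested gene in the 4 lists of histone partners (dark points) and the 9 lists of cell type markers (light points), with a black line at each median. The medians run from -0.65 for elongating spermatid markers to 1.28 for macrophage markers, with -0.29 for histone eviction and replacement.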

How the data were processed

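Whole-testis RNA of 3 littermate pairs, each of 1 WT and 1 MLX KO male, was sequenced by the authors, who aligned reads to mm10 with TopHat. The counting tool, its annotation, the library kit and strandedness are not given in the sources used here. The deposited table holds whole-number counts per gene symbol and library, which were the only values used. It also holds columns of the authors' own comparison: a mean signal, a log2 fold change, its standard error and a Wald score, and a p-value with its adjusted value, none of them used. The ChIP-Seq samples were not analysed here.

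Of 17933 rows, 2 were repeats. Counts were fitted with edgeR 4.0.16 in R 4.3.3 (default low-count filter, TMM, quasi-likelihood test, genotype alone in the model, two-sided, Benjamini-Hochberg over 14640 genes, threshold 0.05). CPM values use TMM-adjusted library sizes. A level of 3 counts was taken as the detection floor, and SDs and p-values cover only the spread between these animals. The fits were tested on simulated data with 200 changed genes and no pair effect. There, DESeq2 with the pair as a term recovered the fewest changed genes. The recovery required there was lowered after that fit had missed it. Since no pair effect was simulated, this recovery cannot show how calls lost under that fit in the littermate data are to be read. The titles and the study give littermate pairs. Deviations of same-numbered libraries from the group means correlated at 0.145, 0.0363 and 0.121 across genes, and those of other pairings at 0.033 at most.

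Alternatives were DESeq2 1.42.0, its size factors, library size alone, upper-quartile factors, other filters, the pair as a block and leaving out each library. Exon lengths and overlaps came from GENCODE, and promoters from RefSeq, which matched all 62 members. The members, classes and gene lists were chosen with earlier results of these data known. Named genes were every testis-specific, oocyte and replacement row, the 10 replication-dependent rows with the highest mean CPM, up to 5 increases and 5 decreases past the threshold in all 3 pairs, and the 2 largest increases and decreases in each partner list.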

Additional observations from a re-analysis of the deposited data

How the results depend on the processing

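Of 375 alternative values for the 27 named histone rows, 336 kept their direction and their side of the threshold, 9 lost a call, 14 gained one and 16 changed sign. The decreases of *H1fnt*, *Hils1* and *H2afb1* and the increase of *H1f0* held under all 14 alternatives. Scaled to library size alone, 6 histone rows were higher, 4 of them replacement rows, the median LFC of replacement rows was 0.13, and the summed CPM ratio, MLX KO over WT, was 1.01 for replication-dependent and 1.06 for replacement rows. Under that scaling the LFC turned positive for *H1fx* (0.10), *H2afv* (0.13), *H2afy* (0.01), *H2afz* (0.01), *H3f3a* (0.05) and *H3f3b* (0.12), of which *H3f3b* passed the threshold. There, 2 genes of histone mRNA transcription and processing were higher and 1 lower, 8 chaperones were higher and 2 lower, 1 gene of histone eviction was higher, and 5 genes of S phase were higher and 0 lower.

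With DESeq2 size factors, 7 histone rows were lower, 3 of them replication-dependent and 1 replacement, 1 replication-dependent row and 1 gene of S phase were higher, and the replacement median was -0.04. With DESeq2, 1 replication-dependent row was higher, 1 replacement row was lower, the replacement median was -0.04, 2 genes of histone mRNA processing were lower and 0 genes of S phase were higher. The LFC of *H2afx* was -0.01 under both and under DESeq2 with the pair. Without a filter, 1 gene of S phase was higher.

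The replicate block (littermate pair) in edgeR left 2 replication-dependent rows lower in place of 1. In DESeq2 the replicate block left 1 histone row higher, with 0 replication-dependent rows higher and 0 lower, 1 replacement row lower, a replacement median of -0.04, 2 genes of histone mRNA processing lower and 0 genes of S phase higher. The cause of these changes was not tested.

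Leaving out each library in turn gave 2 to 4 histone rows higher and 4 to 7 lower, 1 to 2 replication-dependent rows higher and 1 to 2 lower, and 1 to 2 replacement rows higher and 0 to 2 lower. Testis-specific rows gave 3 lower each time. Median LFC ranged from -0.17 to 0.13 for replication-dependent rows (0.13 without MLX KO replicate 3), from -0.03 to 0.02 for replacement rows, and from -0.61 to -0.33 for testis-specific rows (-0.61 without MLX KO replicate 1). Genes of histone mRNA processing gave 2 to 4 lower, and genes of S phase 1 to 2 higher and 1 to 4 lower. LFC crossed 0 for *Cenpa* (-0.05 to 0.10), *H2afv* (-0.05 to 0.03), *Hist1h1t* (-0.61 to 0.04), *Hist3h2a* (-0.17 to 0.21) and *Hist2h2aa2* (-0.43 to 0.14). With 3 animals a group, rows of few counts could be called only for large differences: *Hist1h1t*, at 10 to 34 counts a library, had an SE of 0.35 on the log2 scale.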
